A study of Mus musculus with 5 samples.

Results

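The tendon genes *Scx*, *Mkx*, *Tnmd*, *Tnc*, *Thbs1*, *Thbs2*, *Thbs4* and *Comp* were followed by symbol through single-cell RNA-seq of mouse penis and limb. They are 8 of the 32285 genes listed in each library, chosen as a set of tendon regulators and matrix genes. The study compared the penis, where the baculum (penis bone) begins to form, with limbs at the onset of ossification. The data were 3 libraries of glans penis from male mice 6 days after birth (P6), with the prepuce removed, and 1 library each of forelimb and hindlimb from male embryos 15 days after conception. All 5 libraries carried the genotype label C57BL/6N, whereas the study's methods name C57BL/6J, and no treatment or engineered allele is named for them. The methods give 3 penis donors from 2 litters, without saying which library came from which. Organ and age cannot be told apart here, because every penis library is postnatal and both limb libraries are embryonic. The methods give 6 male embryos for the limbs, and how many went into each limb library is not given in the sources used here. The forelimb and hindlimb libraries may therefore share embryos, whereas the tests take them as 2 independent limb libraries.

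Tendon is a rope of aligned collagen made by fibroblasts called tenocytes, which arise from mesenchyme, the loose connective tissue of the embryo. *Scx* (scleraxis) and *Mkx* (mohawk) encode transcription factors of the tendon lineage, and *Tnmd* (tenomodulin) encodes a membrane protein of maturing tenocytes whose expression depends on scleraxis. *Tnc* (tenascin C), *Thbs1*, *Thbs2* and *Thbs4* (thrombospondins) and *Comp* (cartilage oligomeric matrix protein, a thrombospondin relative) encode secreted proteins that bind collagen or cell-surface receptors. Several of them are also used outside tendon, *Comp* in cartilage and *Thbs1* in white blood cells.

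Scleraxis is a basic helix-loop-helix factor, a class that binds the E-box, spelled CANNTG. In the GENCODE annotation of GRCm38, *Scx* lay at chr15:76457452-76459458 on the plus strand, overlapping *Bop1* on the opposite strand. *Tnmd* lay at chrX:133850980-133865577 (plus) and *Tnc* at chr4:63959785-64047015 (minus). *Thbs1* lay at chr2:118111876-118127133 (plus), *Thbs2* at chr17:14665500-14694235 (minus), *Thbs4* at chr13:92751590-92794818 (minus) and *Comp* at chr8:70373558-70382066 (plus). Of the 8 genes, 4 had an upstream sequence in the RefSeq table used here (GRCm38.p6). The 250 bases before the start in RefSeq are shown for *Tnmd*, whose counts went most closely with *Scx*, and for *Thbs4*, whose contrast differed most between the organs, each read 5′ to 3′ on the gene's strand with any E-box in capitals. They cover chrX:133850758-133851007 and chr13:92794819-92795068. The RefSeq start of *Tnmd* lies inside the gene as GENCODE gives it, so the last bases of its stretch fall within that gene.
Tnmd: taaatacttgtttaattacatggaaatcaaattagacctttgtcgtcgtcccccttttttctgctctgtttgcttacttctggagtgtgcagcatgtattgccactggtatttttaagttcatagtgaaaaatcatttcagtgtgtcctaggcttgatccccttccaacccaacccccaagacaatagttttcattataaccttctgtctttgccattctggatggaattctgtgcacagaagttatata
Thbs4: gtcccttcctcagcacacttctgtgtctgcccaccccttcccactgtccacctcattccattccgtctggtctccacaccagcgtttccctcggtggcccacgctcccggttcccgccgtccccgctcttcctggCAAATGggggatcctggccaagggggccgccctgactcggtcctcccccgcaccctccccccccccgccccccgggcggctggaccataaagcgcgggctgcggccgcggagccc
The *Tnmd* stretch held 0 E-boxes and the *Thbs4* stretch held 1, CAAATG. The motif reads the same in form on both strands, so 1 search covers both. Among 32851 upstream stretches of this length, 66.2% held at least 1 E-box and 33.8% held none, so both counts are common ones. A match or its absence in this window is a description of letters and not of binding.

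Of 8411 to 28266 barcodes a library, the cells kept numbered 6788, 7085 and 5708 (penis), 22057 (forelimb) and 20514 (hindlimb). A unique molecular identifier (UMI) marks 1 captured RNA molecule, and the median cell held 9909, 9349 and 8792 UMIs in the penis, 5358 (forelimb) and 6057 (hindlimb). Cell classes were set by gates, each a minimum number of detected markers from a fixed list, and no member was a marker of these gates. A class is called "X-like" where its list had 3 or more markers. Mesenchyme-like cells made up 63.1% to 65.1% of the penis cells and 52.6% to 53.7% of the limb cells. Within them, cells with at least 1 UMI each of *Kera* (keratocan) and *Fmod* (fibromodulin), small proteoglycans of tendon, formed the *Kera*+ *Fmod*+ class of 168, 147 and 144 penis cells, 274 forelimb cells and 280 hindlimb cells. That class rests on 2 markers, so it is called by its rule and not by a cell type. Its 10 leading genes included *Tnmd* and *Scx* in both organs. Its cells were deeper than the mesenchyme-like cells around them, with medians of 10792 to 12666 UMIs in the penis and 7289 to 8158 in the limbs. The libraries shared at most 203 barcodes a pair, at most 0.825% of the smaller library. No doublet caller was run.

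Levels are given as CPM, the count of a gene for every 1000000 UMIs of the summed cells of a class in 1 library. Differences were tested on those sums with edgeR's quasi-likelihood test, and a gene was called where the Benjamini-Hochberg adjusted p was under 0.01 and the log2 fold-change was over 1 in size. Each limb is 1 library, so the limb spread is that between a forelimb and a hindlimb. The SE given with a log2 fold-change was worked back from the edgeR test statistic. With so few libraries, the SE and p lean on a spread that edgeR shares across genes. They do not measure the spread of 1 gene between libraries, least of all in the fits within the limbs.

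In every library *Scx*, *Mkx* and *Tnmd* were higher in the *Kera*+ *Fmod*+ cells than in the other mesenchyme-like cells. Compared with the other mesenchyme-like cells of the same libraries, 5 of the 8 members were called higher and 0 lower, where 1.31% of 17046 genes tested were called, 0.663% higher and 0.651% lower. The count lower was 0 also at an unadjusted p under 0.05 and by DESeq2. The median log2 fold-change of the 8 members was 1.37, and that of all genes tested was -0.04. Markers of other cell types moved with the class too. The 7 chondrocyte markers summed to 130 to 160 CPM in the *Kera*+ *Fmod*+ cells of the penis against 98.8 to 107 CPM in the other mesenchyme-like cells, and to 251 and 275 CPM against 137 and 159 CPM in the limbs. In the penis the 6 endothelial markers summed to 36.0 to 52.2 CPM against 68.6 to 73.2 CPM and the 6 osteoblast markers to 23.8 to 31.4 CPM against 53.2 to 58.7 CPM. Their part in the values of the members was not tested.

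*Scx* stood at 150.2, 130.2 and 139 CPM in the *Kera*+ *Fmod*+ cells of the penis libraries, 219 (forelimb) and 209.8 (hindlimb). In the other mesenchyme-like cells it stood at 6.80, 6.06 and 8.17 CPM in the penis, 20.05 (forelimb) and 21.1 (hindlimb). The lowest *Kera*+ *Fmod*+ value was thus far above the highest value of the other cells, and the log2 fold-change was 4.03 ± 0.20 (SE, 5 libraries, adjusted p = 1.3e-05, edgeR). *Mkx*, the second regulator (18:6934518-7004780 on the minus strand of GRCm38), stood at 128, 132 and 156 CPM in the penis class, 113 (forelimb) and 150.3 (hindlimb), against 25.7 to 39.1 CPM in the other mesenchyme-like cells. Its levels in penis and limb overlapped in the *Kera*+ *Fmod*+ cells, and its log2 fold-change was 2.22 ± 0.10 (adjusted p = 5.8e-06, edgeR).

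*Tnmd*, the scleraxis-dependent membrane protein, had the largest contrast of the 8. It stood at 174, 55.4 and 172 CPM in the penis *Kera*+ *Fmod*+ cells, 565 (forelimb) and 410.2 (hindlimb), and at 3.80 to 5.24 CPM in the other mesenchyme-like cells of the penis and 18.7 to 24.2 CPM in those of the limbs. The second penis library was low, yet still above every value of the other cells. The log2 fold-change was 4.798 ± 0.21 (adjusted p = 5.8e-06, edgeR).

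Of the secreted proteins, *Thbs2* and *Thbs1* were also called higher. *Thbs2*, a regulator of collagen fibril assembly, stood at 268, 305 and 282 CPM in the penis class, 204 (forelimb) and 162 (hindlimb), against 83.4 to 100.6 CPM in the other cells, and rose by a log2 fold-change of 1.52 ± 0.14 (adjusted p = 4.1e-04, edgeR). *Thbs1*, an activator of latent TGF-beta, stood at 109, 114 and 71.2 CPM in the penis class, 279 (forelimb) and 201 (hindlimb). Its log2 fold-change was 1.21 ± 0.19 (adjusted p = 0.0052, edgeR), and it was not called without any 1 of the penis libraries (adjusted p = 0.017 to 0.026). Taken by organ, *Thbs1* was called higher within the penis. Within the limbs it was higher at an unadjusted p under 0.05 by edgeR and was not called. Over both organs together *Tnc* did not separate the classes, with 86.8 to 140.0 CPM in the *Kera*+ *Fmod*+ cells and 90.5 to 129 CPM in the others (log2 fold-change 0.02 ± 0.11, adjusted p = 0.94, edgeR). Within the limbs alone *Tnc* was higher in the class at an unadjusted p under 0.05 by edgeR, and was not called.

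**Figure D1:**
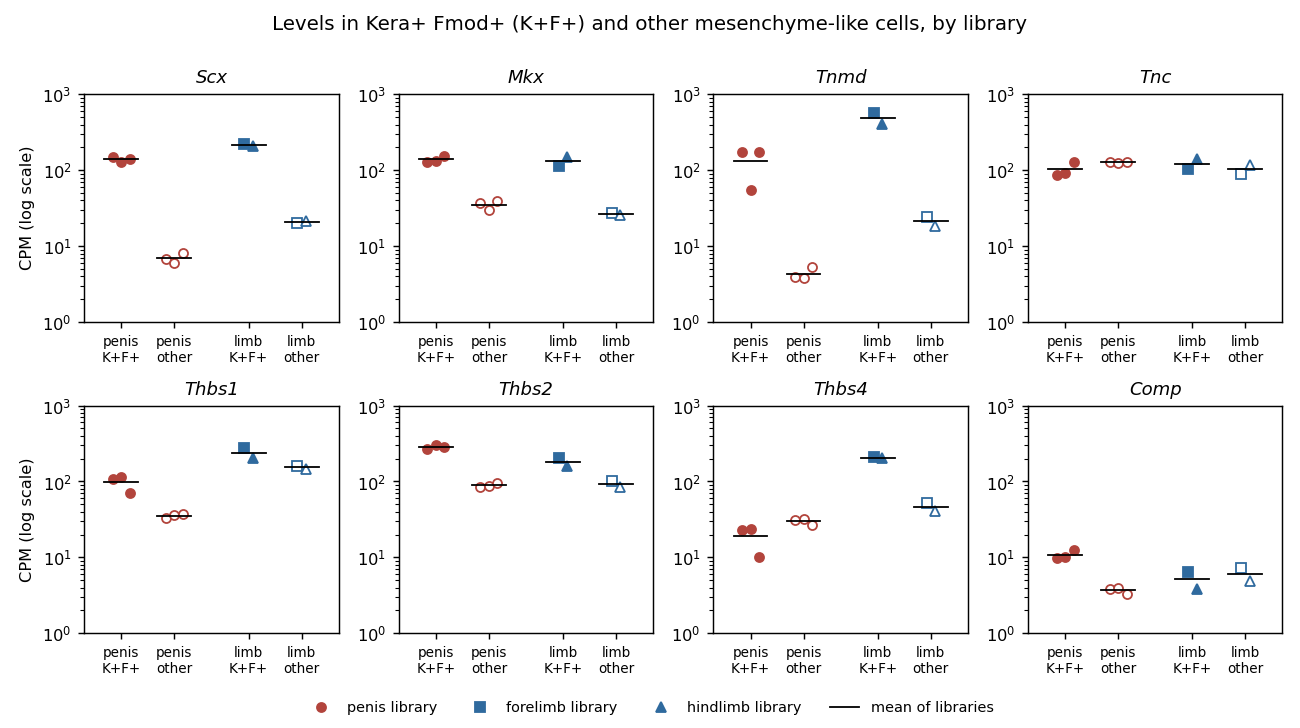
Each point is 1 library's level (CPM, log scale) of 1 gene in the summed *Kera*+ *Fmod*+ cells (filled) or the other mesenchyme-like cells (open) of penis (circles), forelimb (squares) and hindlimb (triangles), and bars are means over the libraries. *Scx*, *Mkx* and *Tnmd* were higher in the filled points in both organs, *Thbs4* was at 202 to 209 CPM in the filled points of the limb and 10.1 to 23.8 CPM in those of the penis, and *Comp* at 9.86 to 12.5 CPM in the filled points of the penis and 3.29 to 3.93 CPM in the open ones.

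The penis and the limb differed in which secreted proteins marked these cells, by a test of the difference between the contrasts. There 2 members were called higher in the penis contrast and 1 lower, where 3.08% of 18907 genes were called, 1.03% higher and 2.06% lower. *Thbs4*, a thrombospondin of tendon and muscle matrix, stood at 23.0, 23.8 and 10.1 CPM in the penis *Kera*+ *Fmod*+ cells and at 30.8, 32.3 and 26.9 CPM in the other penis mesenchyme-like cells, so every value of the class lay below those of the other cells. In the limbs the order was turned, with 209 and 202 CPM in the *Kera*+ *Fmod*+ cells against 52.1 and 40.5 CPM in the others. The log2 fold-change of the class was -0.45 ± 0.16 within the penis (adjusted p = 0.044, not called) and 2.21 ± 0.09 within the limbs (adjusted p = 7.3e-09), and the contrasts differed by -2.74 ± 0.16 (adjusted p = 1.5e-19, edgeR). In both organs *Thbs4* was detected in these cells, and the penis level rests on 49, 43 and 17 UMIs.

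*Comp* went the other way at low levels. It stood at 9.86, 9.97 and 12.5 CPM in the penis *Kera*+ *Fmod*+ cells and at 3.29 to 3.93 CPM in the other penis mesenchyme-like cells, whereas the limbs gave 6.47 and 3.88 CPM against 7.19 and 4.96 CPM. The penis class therefore lay above the other cells in each library and the limb class below them. The log2 fold-changes were 1.74 ± 0.27 within the penis (adjusted p = 1.3e-05) and -0.20 ± 0.28 within the limbs (adjusted p = 0.82), and they differed by 1.84 ± 0.39 (adjusted p = 5.0e-04, edgeR). With cells gated instead on at least 2 of 5 tendon genes (*Scx*, *Mkx*, *Tnmd*, *Kera* and *Fmod*), leaving out the gene measured but using the other members among them, the difference was 0.87 (adjusted p = 0.0072, edgeR) and under the size limit. These *Comp* levels rest on 18 to 21 UMIs in each penis library and on 12 and 17 in the limbs.

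*Scx* had the larger contrast in the penis, 4.53 ± 0.11 against 3.43 ± 0.08 within the limbs, a difference of 1.01 ± 0.13 (adjusted p = 1.1e-08, edgeR). That difference was at the size limit, and it fell under it without penis library 1 (0.95) or 2 (0.98), without the hindlimb (0.98), with 1 more marker per gate (0.93) and with the gate of 2 of 5 tendon genes (0.90). Its *Kera*+ *Fmod*+ level was lower in the penis, but its level in the other mesenchyme-like cells was lower still. *Thbs1* and *Thbs2* differed the same way by 0.92 ± 0.13 and 0.75 ± 0.10 (adjusted p = 2.4e-07 and 2.5e-08), and *Tnc* by -0.51 ± 0.12 (adjusted p = 0.0014), each short of the size limit. For *Mkx* the difference was -0.27 ± 0.13 (adjusted p = 0.21) and for *Tnmd* 0.48 ± 0.16 (adjusted p = 0.047, edgeR), both past neither limit.

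Within the penis alone 6 members were called higher in the *Kera*+ *Fmod*+ cells, where 5.35% of 16903 genes were called, 2.13% higher and 3.22% lower. Within the limbs 5 were called higher, where 1.05% of 19359 genes were called, 0.692% higher and 0.362% lower. Over the 16676 genes tested in both organs, 354 were called higher in the penis and 123 in the limbs, and 44 were called in both, which is 12.4% of the penis list and 35.8% of the limb list. *Scx*, *Mkx*, *Tnmd* and *Thbs2* were 4 of those 44. The lists are of unequal size, and the penis fit had 3 libraries and the limb fit 2.

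Of 20 tested tendon matrix genes beside the members (*Kera* and *Fmod*, which set the gate, left out), 8 were called higher and 0 lower in the *Kera*+ *Fmod*+ cells, beside the 0.663% of all genes called higher, with a list median of 0.92 on the log2 scale. Within the penis 12 of the 20 were called higher and within the limbs 4. *Col11a1*, a nucleator of collagen fibrils, had a log2 fold-change of 2.93 ± 0.19, *Chad* (chondroadherin) 2.19 ± 0.20, *Col1a1* 1.59 ± 0.16 and *Col1a2* 1.501 ± 0.14, the last 2 encoding the chains of type I collagen (adjusted p = 4.9e-05 to 6.6e-04, edgeR). *Aspn*, *Col14a1*, *Col12a1* and *Dcn* followed with 1.24 ± 0.21, 1.24 ± 0.08, 1.19 ± 0.16 and 1.04 ± 0.15. Among the 12 tested receptors of tenascins and thrombospondins, *Itga2*, a collagen-binding integrin subunit, was the single gene called (2.09 ± 0.11, adjusted p = 1.3e-05), and within the penis *Itga8* was also called, lower. Of the 14 upstream regulators (*Egr1*, *Six2*, *Tgfbr2* and others) edgeR called 0 and DESeq2 0, and 6 were higher at an unadjusted p under 0.05. Within the penis, however, *Klf2* was called higher and *Meox2* and *Six2* lower, and within the limbs *Six2* was called higher. The difference between the organs was called for these 3 regulators, with a higher log2 fold-change in the penis for *Klf2* and a lower one for *Meox2* and *Six2*. Of the 5 relatives edgeR called 0 and DESeq2 1 lower, and 4 passed an unadjusted p under 0.05, 2 in each direction. Here too the organs differed, with *Thbs3* and *Tnn* called higher and *Cnmd* and *Tnr* lower within the penis, and *Tnxb* called lower within the limbs. The difference between the organs was called for 4 relatives, with a higher log2 fold-change in the penis for *Thbs3*, *Tnn* and *Tnxb* and a lower one for *Cnmd*. Of the 10 genes of the response to dissociation edgeR called 0 and DESeq2 0, and 5 were higher and 1 lower at an unadjusted p under 0.05. Within the penis 9 were higher and 0 lower at that p by edgeR, and within the limbs 2 were higher and 1 lower, with 0 called in either organ.

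Between the organs, *Thbs1*, *Tnmd* and *Scx* were called lower in the mesenchyme-like cells of the penis. Of the 8 members, 3 were called lower and 0 higher, where 25.3% of 20287 genes were called, 12.9% lower and 12.5% higher. At an unadjusted p under 0.05, 2 members were higher, and DESeq2 called 0 higher. The share of all genes called is large, so the members' count stands against a broad difference between the organs. The median log2 fold-change was -0.73 over the members and 0.00 over all genes tested. Marker sums also moved between the organs in these cells. Over 11 lists, those of the 10 gates and the dissociation genes, 7 sums were higher in each penis library than in each limb library and 4 were lower. The 6 endothelial markers summed to 67.3 to 72.2 CPM in the penis and 136 and 146 CPM in the limbs, and the 8 muscle markers to 19.5 to 19.9 CPM against 31.5 and 38.6 CPM. The 6 osteoblast markers summed to 52.1 to 57.4 CPM against 9.90 and 10.6 CPM, and the 6 mural markers to 108 to 122 CPM against 56.8 and 63.6 CPM. The 6 white blood markers summed to 6.79 to 7.49 CPM against 14.0 and 15.6 CPM, and the 7 chondrocyte markers to 102 to 108 CPM against 141 and 163 CPM. The 10 dissociation genes summed to 5017 to 5254 CPM against 4004 and 4071 CPM. Their part in the values of the members was not tested.

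*Thbs1* stood at 36.6, 38.8 and 38.8 CPM in the mesenchyme-like cells of the penis, 164 (forelimb) and 149 (hindlimb), without overlap, and fell by 2.06 on the log2 scale (SE 0.06, adjusted p = 3.1e-08, edgeR). *Tnmd* stood at 11.6, 5.84 and 13.2 CPM against 43.1 and 34.0 CPM, a log2 fold-change of -1.95 ± 0.24 (adjusted p = 9.8e-05). *Scx* stood at 13.3, 10.98 and 14.4 CPM against 27.0 and 28.6 CPM, a log2 fold-change of -1.13 ± 0.09 (adjusted p = 5.9e-06). For all 3 genes, named here because they were called in these same sums, each penis library lay below each limb library. How many of all genes have levels without overlap, here or in the other classes, was not counted. *Thbs4* (-0.84 ± 0.11, adjusted p = 1.7e-04), *Comp* (-0.61 ± 0.17, adjusted p = 0.0089) and *Mkx* (0.36 ± 0.09, adjusted p = 0.0059) were short of the size limit, and *Tnc* (0.26 ± 0.09, adjusted p = 0.029) and *Thbs2* (0.01 ± 0.08, adjusted p = 0.91, edgeR) were past neither limit.

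Within the *Kera*+ *Fmod*+ cells alone, 3 members were again called lower in the penis and 0 higher, where 14% of 12187 genes were called, 6.54% lower and 7.43% higher. The rule need not pick like cells in both organs, since its marker *Fmod* stood at 74.2 CPM in the mesenchyme-like cells of the penis and 17.4 CPM in those of the limbs (log2 fold-change 2.07 ± 0.06, adjusted p = 1.9e-08, edgeR) and those cells had medians of 9139 to 10378 UMIs against 5510 and 6147. The part of this in the values was not tested. At an unadjusted p under 0.05, 2 members were higher, and DESeq2 called 0 higher. *Thbs4* had the largest difference, -3.30 ± 0.19 (adjusted p = 1.5e-08), followed by *Tnmd* with -1.76 ± 0.28 (adjusted p = 2.0e-04) and *Thbs1* with -1.17 ± 0.18 (adjusted p = 1.3e-04, edgeR). *Tnmd* was not called by DESeq2 (adjusted p = 0.026), and *Thbs1* fell under the size limit without penis library 3 (-0.97) or without the forelimb (-0.91). *Scx* (-0.51 ± 0.10, adjusted p = 0.0014) and *Thbs2* (0.74 ± 0.12, adjusted p = 2.2e-04) passed the limit on p and not that on size. *Comp* had a log2 fold-change of 1.17 ± 0.34 (adjusted p = 0.013), *Mkx* 0.17 ± 0.13 (adjusted p = 0.33) and *Tnc* -0.17 ± 0.16 (adjusted p = 0.42, edgeR).

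**Figure D2:**
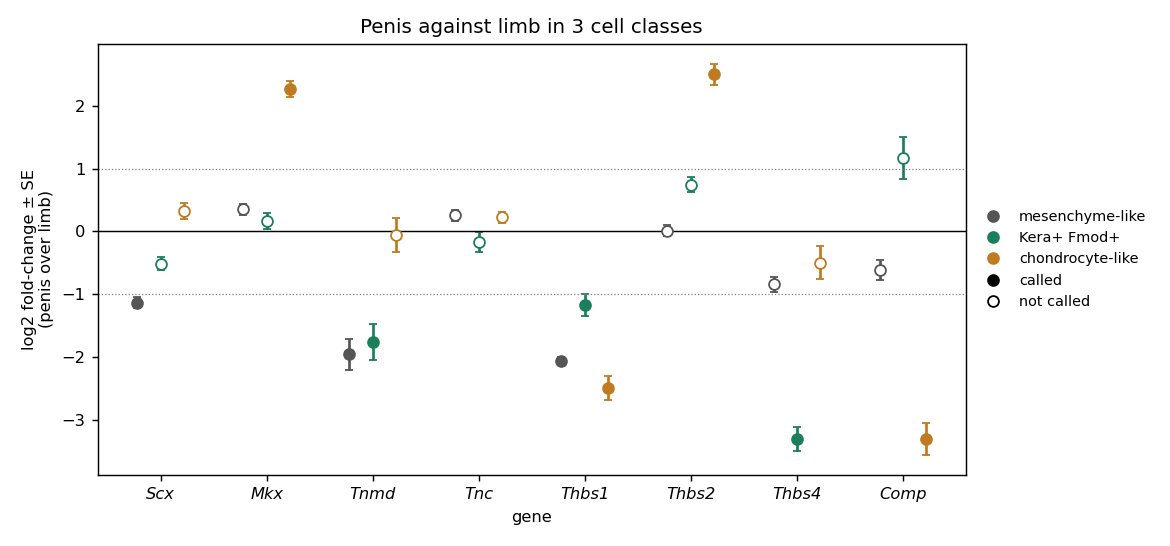
Each point is the log2 fold-change of the penis over the limb for 1 gene in 1 cell class with its SE (3 penis against 2 limb libraries), filled where called, and dotted lines mark the size limit of 1. *Thbs1* lay below -1 in all 3 classes, *Thbs4* was lowest in the *Kera*+ *Fmod*+ cells (-3.30), and *Mkx* and *Thbs2* lay above 2 in the chondrocyte-like cells.

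Penis cells were deeper than limb cells, so the shares of cells with a UMI were compared after each cell was thinned to 2000 UMIs. Cells with fewer than 2000 UMIs were left out of the thinned shares. With 3 libraries against 2 the exact two-sided permutation test has 10 splits and cannot give a p below 0.1. Among *Kera*+ *Fmod*+ cells, the thinned share with *Tnmd* was 12.5%, 5.63% and 11.2% in the penis, 41.8% (forelimb) and 39.0% (hindlimb). The share with *Thbs4* was 3.62%, 2.73% and 1.86% against 23.1% and 19.8%, and that with *Scx* 21.1%, 19.0% and 18.8% against 27.6% and 24.3%. None of these ranges overlapped between the organs, and each gave p = 0.1, the smallest the exact test allows. The same held for *Thbs1*, with mean shares of 13.2% against 28.0%. Other members ran higher in the penis without overlap. Their mean shares were 37.0% against 30.9% for *Thbs2* (exact permutation p = 0.1), 16.8% against 14.3% for *Tnc* and 2.08% against 1.48% for *Comp* (p = 0.2 for both). How many of all genes have ranges without overlap was not counted. Unthinned and over all cells of the class, the mean shares were 14.7% against 51.1% for *Tnmd*, 10.1% against 34.9% for *Thbs4* and 40.3% against 44.1% for *Scx*. The unthinned ranges of *Scx* overlapped (exact permutation p = 0.4). For *Mkx* the thinned shares overlapped, 19.4% to 22.3% in the penis and 20.03% to 22.5% in the limbs. White blood-like cells, which should lack *Scx*, *Tnmd*, *Thbs4* and *Mkx*, had *Scx* UMIs in 0% to 0.64% of thinned cells and *Tnmd* UMIs in 0% to 0.80%. The same background was 0.14% to 0.88% for *Thbs4* and 0.54% to 1.04% for *Mkx*, so the lowest thinned share of each of these 4 genes in the *Kera*+ *Fmod*+ cells lay above its highest share in white blood-like cells.

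Over the 12187 genes tested in the same *Kera*+ *Fmod*+ cells, 7.43% were called higher in the penis and 6.54% lower. Of 22 tendon matrix genes, 14 were called higher in the penis and 0 lower by edgeR (2 lower at an unadjusted p under 0.05, 0 by DESeq2), with a list median of 1.34 on the log2 scale, against 0.01 over all genes. Examples were *Chad* (log2 fold-change 4.33 ± 0.36), *Dcn* (2.30 ± 0.12), *Bgn* (2.07 ± 0.12), *Prg4* (1.99 ± 0.40) and *Col1a1* (1.84 ± 0.15). The direction was thus opposite to that of *Tnmd*, *Thbs4* and *Thbs1* in the same sums. Of 4 tested relatives of the members, *Tnxb* (tenascin X, 3.86 ± 0.27), *Tnn* (tenascin N, 2.90 ± 0.30) and *Thbs3* (1.94 ± 0.12) were called higher and *Cnmd* (chondromodulin, the closest relative of tenomodulin, -1.78 ± 0.43) lower, the last not by DESeq2. Among the regulators *Meox2* (-3.99 ± 0.21) was called lower and *Sox9* higher, and among 11 receptors *Itga2* (1.82 ± 0.23) and *Sdc4* were called higher and *Itga8* lower. Of the 10 dissociation genes, the heat shock genes *Hspa1a* and *Hspa1b* (1.90 ± 0.19) were called higher and 0 lower, and the summed list stood at 4873 to 5221 CPM in the penis and 3672 to 4000 CPM in the limbs. The 6 endothelial markers summed to 36.0 to 52.2 CPM in the penis class, with *Cldn5* at 0 in 1 library, and to 139 and 189 CPM in the limb class, with *Emcn* at 0 in both. The 6 osteoblast markers summed to 23.8 to 31.4 CPM against 4.202 and 6.47 CPM, with 2 to 5 and 3 to 4 of them detected. Of the 11 lists, 4 sums were higher and 4 lower in each penis library than in each limb library. The 6 white blood markers summed to 4.43 to 5.63 CPM against 11.3 and 12.9 CPM. The 7 chondrocyte markers, all detected in each library, summed to 130 to 160 CPM in the penis class and 251 to 275 CPM in the limb class. The 8 muscle markers summed to 8.9 to 12.5 CPM in the penis class, where *Myod1*, *Myog* and *Actc1* were at 0, and to 23.9 and 24.0 CPM in the limb class. The part of these in the differences of the members was not tested.

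Over the 20287 genes tested in all mesenchyme-like cells, 12.5% were called higher in the penis and 12.9% lower, with a median of 0.004 on the log2 scale. Of 22 tendon matrix genes, 10 were called higher and 1, *Col11a1*, lower, with a list median of 0.74. *Chad* (4.16 ± 0.13), *Prg4* (2.74 ± 0.13), *Bgn* (2.13 ± 0.08), *Fmod* (2.07 ± 0.06) and *Dcn* (1.44 ± 0.09) were among the 10 called higher. Of the relatives, *Tnr* (3.38 ± 0.16) and *Tnxb* (2.05 ± 0.16) were called higher, and of the regulators *Six2* (1.57 ± 0.09) and *Tgfb3* higher and *Meox2* (-1.63 ± 0.06) and *Klf2* lower. *Itga2* (1.79 ± 0.17) and *Sdc4* were called higher and *Cd36*, a receptor of thrombospondin 1, lower, while *Hspa1b* (2.02 ± 0.06) and *Hspa1a* (1.46 ± 0.07) were the dissociation genes called higher.

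*Thbs4* was spread differently over the mesenchyme-like cells of the 2 organs. In the penis its highest level was in the remaining cells, those outside the *Kera*+ *Fmod*+ class with no UMI of *Gdf5*, *Sox9*, *Pi16* or *Clec3b*, at 64.1, 63.7 and 48.1 CPM, against 43.4 and 36.6 CPM in the limbs. In the cells with *Sox9*, a factor of cartilage and tendon progenitors, it stood at 11.3, 12.2 and 14.2 CPM in the penis and 46.3 and 36.5 CPM in the limbs. In the cells with *Pi16* or *Clec3b*, fibroblast markers, it stood at 11.1, 12.7 and 10.8 CPM against 76.2 and 73.4 CPM. The remaining class was the only 1 of the 4 in which each penis library lay above each limb library, and the *Kera*+ *Fmod*+ class was the highest of the 4 in the limbs. Of all *Thbs4* UMIs in a library, the *Kera*+ *Fmod*+ cells held 1.66% to 3.16% in the penis and 9.06% to 12.9% in the limbs. For *Scx* the same class held 34.0% to 38.2% in the penis and 16.5% to 17.4% in the limbs. These subclass values are descriptions without a test.

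In chondrocyte-like cells *Thbs2* and *Mkx* were higher in the penis and *Thbs1* and *Comp* lower. Of the 8 members, 2 were called higher in the penis and 2 lower, where 17.6% of 12531 genes were called, 9.73% higher and 7.88% lower. The penis class held 182, 185 and 141 cells and the limb class 1861 and 2469. In the penis 100, 107 and 94 of the cells had no more than the 4 markers the gate requires. The first 3 leading genes were *Cnmd*, *Grem1* and *A2m* in the penis class and *Col2a1*, *Col9a1* and *Matn1* in the limb class. *Col9a1* and *Col9a3* were among the 10 leading genes of both. The 7 gate markers summed to 1602 to 2219 CPM in the penis and 10136 to 10909 CPM in the limbs. Other lists moved in these cells as well, the 6 mesenchyme markers from 1673 to 1801 CPM in the penis to 1201 and 1203 CPM in the limbs, and the 6 endothelial markers from 49.3 to 59.0 CPM to 70.4 and 98.1 CPM. The 6 white blood markers summed to 1.19 to 9.34 CPM against 16.2 and 16.5 CPM, and the 6 osteoblast markers to 261 CPM in penis library 2 against 27.6 and 28.5 CPM in the other penis libraries and 21.9 and 39.7 CPM in the limbs. The 10 dissociation genes summed to 4628 to 5422 CPM against 3334 and 3519 CPM, with *Hspa1a*, *Hspa1b* and *Jun* called higher. In all, 3 of the 11 lists were higher and 5 lower in each penis library than in each limb library. The part of these lists in the values of the members was not tested.

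*Thbs2* stood at 344, 338 and 376 CPM in the penis chondrocyte-like cells, above its *Kera*+ *Fmod*+ level, and at 77.6 and 48.6 CPM in the limbs (log2 fold-change 2.50 ± 0.17, adjusted p = 1.4e-07, edgeR). *Mkx* stood at 183, 193 and 238 CPM in the penis, also above its *Kera*+ *Fmod*+ level there, against 46.6 and 38.9 CPM in the limbs (2.27 ± 0.13, adjusted p = 2.8e-08, edgeR). Both genes were thus several-fold higher in each penis library than in each limb library, and the thinned shares of cells ran the same way, 43.1% to 48.2% against 7.16% and 10.2% for *Thbs2* and 25.9% to 31.7% against 5.86% and 6.77% for *Mkx* (exact permutation p = 0.1 for each, the smallest possible). *Thbs1* stood at 26.3, 45.4 and 31.4 CPM in the penis and 224 and 172 CPM in the limbs (-2.49 ± 0.18, adjusted p = 2.6e-07, edgeR). *Scx* (0.32 ± 0.12), *Tnc* (0.22 ± 0.09), *Tnmd* (-0.06 ± 0.27) and *Thbs4* (-0.50 ± 0.26) were not called (adjusted p = 0.042 to 0.88).

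*Comp*, a major matrix protein of cartilage, depended on which cells counted as chondrocyte-like. With cells of a second gate left out it stood at 25.0, 39.9 and 12.5 CPM in the penis and 314 and 223 CPM in the limbs, and fell by 3.30 on the log2 scale (SE 0.26, adjusted p = 4.9e-07, edgeR). Cells that passed the chondrocyte and the osteoblast gate and no other gate are called the cells of both gates. They numbered 10, 7 and 10 in the penis and 9 and 8 in the limbs. Those few cells held *Comp* at 2510, 3402 and 2353 CPM in the penis and at 2753 and 1485 CPM in the limbs. A level over 1000 CPM was otherwise found among the members for *Tnc* alone, in the osteoblast-like cells of the penis. Once they were added, the log2 fold-change of *Comp* was 0.14 (adjusted p = 0.41, edgeR), so the call was lost and the sign turned. *Thbs2* (2.38), *Mkx* (2.18) and *Thbs1* (-1.53) were called with them as without them. This class was added after the data had been seen.

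The 27 penis cells of both gates and no other gate held 1976 of the 2960 *Comp* UMIs of all 19581 penis cells. By library this was 64.8%, 64.4% and 72.1% of the total. Cells that also passed another gate were not counted here in either organ. In the limbs the cells of both gates held 4.94% and 5.63%, and the chondrocyte-like cells held 71.5% and 78.9%. In the penis, therefore, most *Comp* RNA came from a handful of cells, a pattern found in each of the 3 libraries and in neither limb library. These cells were deep, with medians of 26965, 28309 and 25732 UMIs in the penis, 8326 (forelimb) and 23419 (hindlimb). Whether any of them were doublets was not tested. *Thbs1* was also raised in them, at 286, 398 and 396 CPM in the penis and 832 and 794 CPM in the limbs, while *Scx* and *Tnmd* had 0 UMIs in every library.

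**Figure D3:**
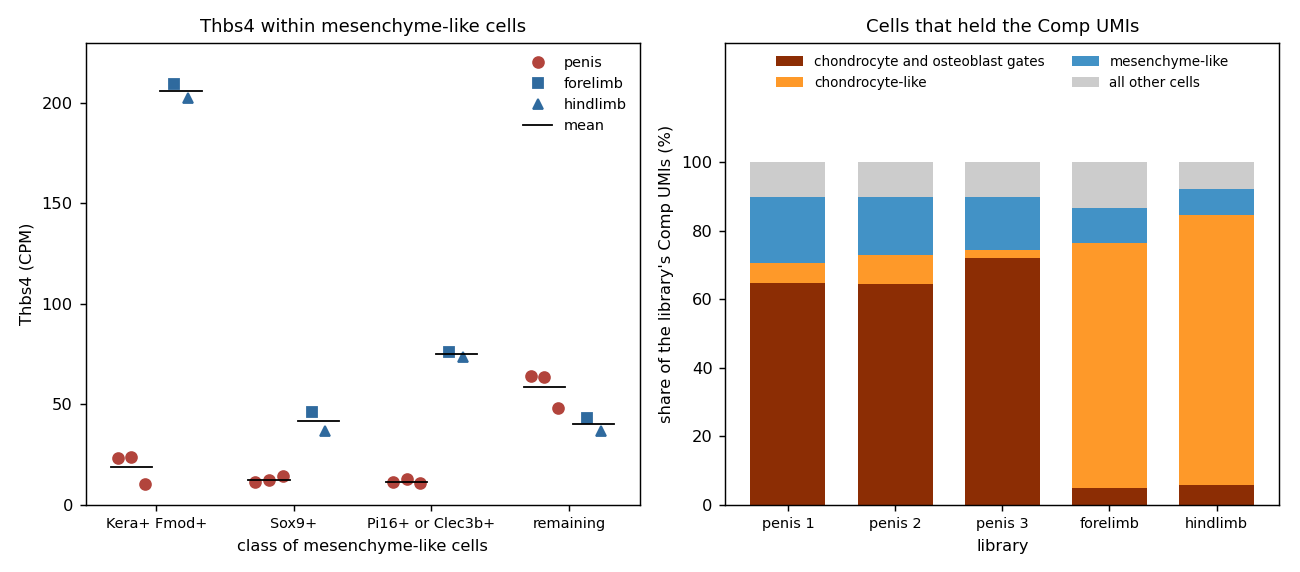
The left panel plots *Thbs4* (CPM) in 4 classes of mesenchyme-like cells, with 1 point per library and bars for means, and the right panel plots the share of each library's *Comp* UMIs (%) held by each class of cells. *Thbs4* peaked in the limb *Kera*+ *Fmod*+ cells (202 to 209 CPM) and in the remaining cells of the penis (48.1 to 64.1 CPM). The cells of both gates passed the chondrocyte and osteoblast gates and no other. They held 64.4% to 72.1% of *Comp* UMIs in the penis and 4.94% to 5.63% in the limbs.

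*Tnc*, which over both organs together did not separate the *Kera*+ *Fmod*+ cells from the other mesenchyme-like cells, was highest in the bone-forming cells of the penis. Osteoblast-like cells numbered 11, 16 and 13 in the penis and 11 and 4 in the limbs, too few for a test. They held *Tnc* at 2833, 1154 and 1585 CPM in the penis and 123 and 124 CPM in the limbs. The limb values rest on 12 and 6 UMIs, and the penis values on 260 to 397. In epithelial-like cells *Tnc* stood at 251, 247 and 321 CPM in the penis and 61.5 and 57.1 CPM in the limbs (log2 fold-change 2.25 ± 0.16, adjusted p = 5.5e-08, edgeR), the only member called there, where 11.1% of 12708 genes were called, 5.3% higher and 5.77% lower. In these cells the 7 chondrocyte markers summed to 24.4 to 26.8 CPM in the penis and 100.7 and 108 CPM in the limbs, the 8 muscle markers to 2.19 to 5.26 CPM against 34.8 and 36.1 CPM and the 6 white blood markers to 2.67 to 8.01 CPM against 27.5 and 30.8 CPM. The 6 osteoblast markers summed to 12.6 to 18.9 CPM against 3.08 and 3.94 CPM, 3 of the 11 lists were higher and 5 lower in each penis library, and their part in the *Tnc* level was not tested. In glial-like cells it stood at 139, 158 and 164 CPM against 98.0 and 71.0 CPM, short of the size limit (0.92 ± 0.14, adjusted p = 7.4e-05).

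*Thbs1* was highest in white blood-like cells among the classes of the penis with at least 20 cells. It stood there at 389, 346 and 453 CPM in the penis and 259 and 232 CPM in the limbs, and those cells held 23.2% to 28.2% of the penis *Thbs1* UMIs. Each penis library lay above each limb library there, although the log2 fold-change of 0.67 ± 0.12 (adjusted p = 7.9e-04, edgeR) was short of the size limit. The 10 leading genes of the class differed in part between the organs. In the penis they included *Lyz2*, *S100a9* and *S100a8*, and also the mast cell gene *Cma1*. In the limbs they included the mast cell genes *Cpa3*, *Cma1* and *Tpsb2*, and also *Lyz2*, *C1qb* and *Pf4*. Of the 5 members tested there, edgeR called 0 and DESeq2 0, and 1, *Thbs1*, passed an unadjusted p under 0.05, where 20.7% of 12163 genes were called, 13% higher and 7.63% lower. Of the 10 dissociation genes, 7 were called higher in these cells in the penis and 0 lower. They summed to 5445 to 5915 CPM in the penis and to 2775 to 3003 CPM in the limbs, and the 6 endothelial markers to 184 to 227 CPM against 106 and 123 CPM. Of the 11 lists, 6 sums were higher and 2 lower in each penis library, the white blood markers themselves at 6062 to 6672 CPM against 3869 and 4027 CPM, and their part in the *Thbs1* level was not tested.

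In endothelial-like and mural-like cells the members called were mostly lower in the penis. In endothelial-like cells *Thbs1* stood at 8.76, 7.42 and 3.58 CPM in the penis and 52.4 and 43.2 CPM in the limbs (-2.82 ± 0.21, adjusted p = 6.3e-09, edgeR). *Scx* (-1.50 ± 0.36) and *Tnc* (-1.005 ± 0.12) were also called lower there and *Comp* (1.16 ± 0.34) higher, where 14.5% of 13581 genes were called, 7.16% higher and 7.37% lower. DESeq2 did not call *Scx* or *Comp* (adjusted p = 0.030 and 0.033), *Scx* was not called without either limb library (adjusted p = 0.026 and 0.044), and *Tnc* was under the size limit without the hindlimb (-0.93) or without penis library 1 or 2 (-0.97 and -0.98). *Comp* was not called without penis library 1 or 3 (adjusted p = 0.019 and 0.055) or without the hindlimb (0.68, adjusted p = 0.18, edgeR). Of the 11 lists, 4 sums were higher and 5 lower in each penis library of these cells than in each limb library. The 6 mesenchyme markers summed to 242 to 304 CPM in the penis and 437 to 531 CPM in the limbs, and the 6 white blood markers to 15.9 to 22.3 CPM against 29.5 and 36.2 CPM. The 10 dissociation genes summed to 3735 to 4054 CPM against 2553 and 2598 CPM, with *Fos* called higher. The 7 chondrocyte markers summed to 22.5 to 33.2 CPM against 65.2 and 73.0 CPM and the 8 muscle markers to 0.61 to 3.58 CPM against 21.7 and 28.0 CPM, and the part of these lists in the values was not tested. In mural-like cells, gated on genes of pericytes and smooth muscle, *Thbs4* stood at 2.15, 4.47 and 5.54 CPM against 38.3 and 29.5 CPM (-3.13 ± 0.32, adjusted p = 2.8e-06, edgeR). *Tnmd* (-3.01 ± 0.38) and *Thbs1* (-1.73 ± 0.22) were lower there too, where 14.6% of 12184 genes were called, 8.01% higher and 6.61% lower. The class was not alike in the organs, since its own 6 markers summed to 2372 to 2865 CPM in the penis and 822 and 843 CPM in the limbs. *Actg2* and *Lmod1* were among its 10 leading genes in the penis and not in the limbs, and whether its smooth muscle lay in vessel walls was not tested. Cells with no more than the 3 markers required were common in both organs. They were 107 of 210, 109 of 217 and 94 of 180 cells in the penis, 111 of 158 in the forelimb and 78 of 122 in the hindlimb. The mesenchyme markers summed to 1565 to 1623 CPM in mural-like cells of the penis and 1461 to 1579 CPM in those of the limbs, and the dissociation genes to 5418 to 6165 CPM against 4042 and 4369 CPM. Of the 11 lists, 7 sums were higher and 1 lower in each penis library than in each limb library, and the 6 osteoblast markers stood at 40.4 to 51.0 CPM against 8.63 and 13.4 CPM. The part of these in the values was not tested. With 1 more marker required in the gate, *Tnmd* was no longer called in these cells (-1.07, adjusted p = 0.28, edgeR).

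In glial-like cells *Thbs1* (-2.003 ± 0.28) and *Mkx* (-2.47 ± 0.61) were called lower in the penis, where 17.1% of 11288 genes were called, 9.13% higher and 7.95% lower. *Mkx* stood at 0.56 to 3.98 CPM in the penis and 8.42 and 14.4 CPM in the limbs, and its call was lost by DESeq2 (adjusted p = 0.021) and without the forelimb (adjusted p = 0.017) or the hindlimb (adjusted p = 0.11). The dissociation genes summed to 4951 to 5299 CPM in glial-like cells of the penis and 1800 to 2104 CPM in those of the limbs, and 9 of the 10 were called higher. The 6 glial markers themselves summed to 13366 to 14435 CPM in the penis and 1779 and 1826 CPM in the limbs, the 6 mesenchyme markers to 198 to 393 CPM against 491 and 588 CPM and the 6 endothelial markers to 36.3 to 49.1 CPM against 141 and 147 CPM. Of the 11 lists, 3 sums were higher and 6 lower in each penis library, and the part of these in the values was not tested. Cells of the red blood gate also held mesenchyme markers at 1762 to 1876 CPM in the penis and 1313 to 1487 CPM in the limbs, against 1952 to 2359 CPM in the mesenchyme-like cells, so they are called by their gate alone. In that gate 4 of the 11 lists were higher and 4 lower in each penis library, and their part in its values was not tested. *Thbs1*, *Thbs4*, *Scx* and *Tnmd* were called lower in them, by log2 fold-changes of -2.10, -1.76, -1.45 and -3.98, where 13% of 10976 genes were called, 7.76% higher and 5.24% lower. The *Scx* call there was lost without each library except the hindlimb (adjusted p = 0.013 to 0.061, edgeR) and by DESeq2 (adjusted p = 0.033). Muscle-like cells were found in the limbs, 1634 and 1265 cells, whereas the 1 penis cell that passed the muscle gate also passed the chondrocyte gate and was left out of both classes. They held *Scx* at 19.6 and 19.7 CPM, close to the other limb mesenchyme-like cells, but *Tnmd* at 2.10 and 2.61 CPM, and *Scx* and *Tnmd* thus parted in this class. Markers of other cell types were not summed in muscle-like cells, and their part in these values was not tested.

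**Figure D4:**
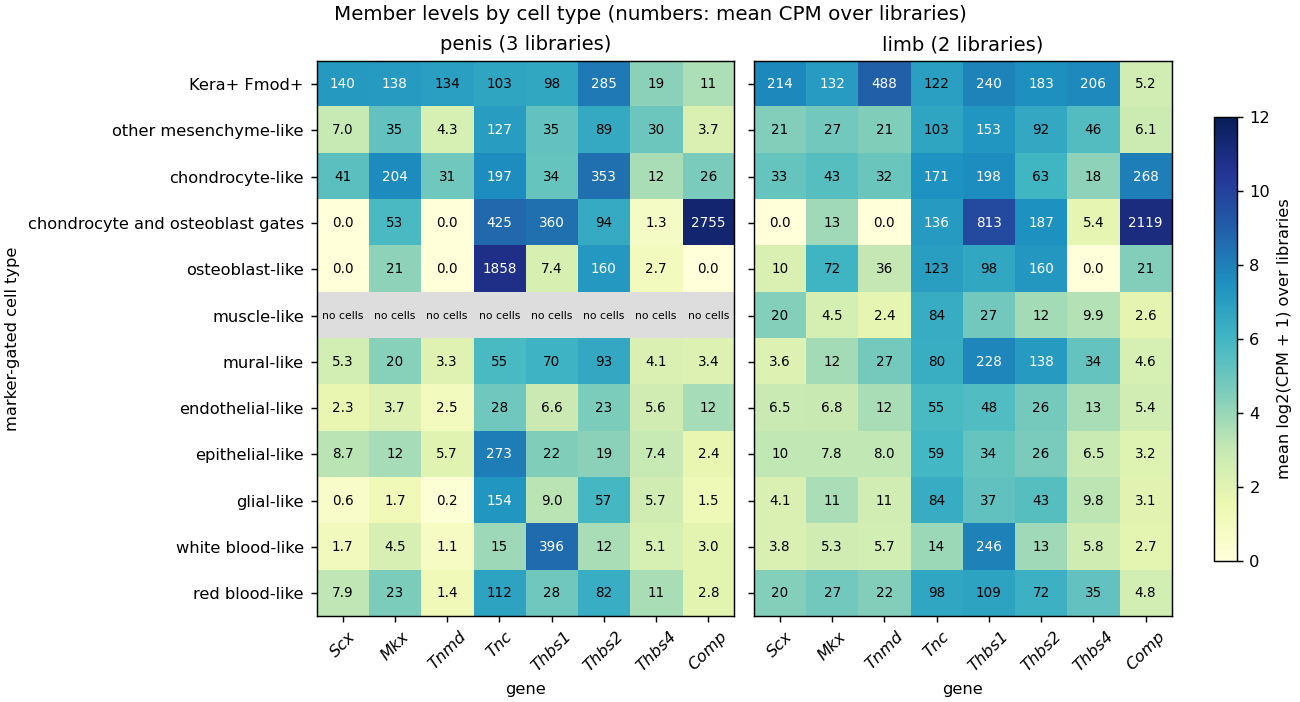
Each cell of the 2 maps is the mean level of 1 gene in 1 cell class over the penis (left) or limb (right) libraries, coloured by the mean log2(CPM + 1) and labelled with the mean CPM, and grey marks a class with no cells. *Scx* and *Tnmd* peaked in the *Kera*+ *Fmod*+ row, *Comp* in the cells of both gates, *Tnc* in the penis osteoblast-like cells, and *Thbs1* was high in white blood-like cells.

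The 8 genes did not vary as 1 group. Over 59 sums, each of at least 20 cells of 1 class in 1 library, Pearson's r of log2(CPM + 1) was 0.83 between *Scx* and *Tnmd*, 0.79 between *Scx* and *Mkx* and 0.75 between *Mkx* and *Thbs2*. It was -0.28 between *Tnc* and *Thbs1* and 0.11 between *Thbs1* and *Thbs2*. Of 20029 genes with at least 100 UMIs, the 3 most like *Scx* were *Tnmd*, *Mkx* and *Egfl6*, and the 3 most like *Tnmd* were *Scx*, *Egfl6* and *Col11a1*. Those most like *Mkx* were *Gm2350* (r = 0.92), *Cyp26b1* and *Adgrg2*. Those most like *Thbs2* were the collagen gene *Col5a2* (r = 0.94), *Pofut2* and *Copz2*. *Comp* went with the cartilage genes *Snorc* (r = 0.81) and *Ucma* and with *Gm43154*. *Thbs1* went with *Emilin2* (r = 0.86), *Gm13986* and *Abca9*, *Tnc* with *Fat1* (r = 0.85), *Lrfn4* and *Cnksr2*, and *Thbs4* with *Angptl1* (r = 0.77), *Robo2* and *Ostc*. These sums share libraries, depth and cells of related classes, so the values describe likeness only.

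Within the mesenchyme-like cells, *Scx* and *Tnmd* also met in the same cells. Cells with a *Scx* UMI numbered 240, 209 and 194 in the penis, 829 (forelimb) and 934 (hindlimb). They held *Tnmd* at 149, 56.8 and 168 CPM in the penis and 353 and 229 CPM in the limbs, and the cells without *Scx* at 2.94, 3.10 and 4.13 CPM and at 14.6 and 13.6 CPM. The ratio was thus 18.3 to 50.8 in the penis and 16.9 to 24.2 in the limbs. For *Mkx* it was 5.80 to 7.61 in the penis and 4.98 and 5.82 in the limbs. *Thbs4* was 3.66 and 3.86 times as high in the limb cells with *Scx* as in those without it, and 0.72 to 1.33 times in the penis, while *Thbs1* was 2.64 to 3.17 times as high in the penis and 0.70 to 0.76 times in the limbs. These ratios compare cells split on 1 UMI and carry no test.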

How the data were processed

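Single-cell RNA-seq of 3 P6 penis libraries, a forelimb library and a hindlimb library was read. Per the labels and the study's methods, tissues were dissociated and run on the 10X Genomics 3′ kit, and the authors counted UMIs with Cell Ranger 7.0.0 on mm10. Deposited were raw counts of UMIs per gene and barcode. Whether introns were counted is not given in the sources used here. The members and all gene lists were chosen with earlier results of these data known.

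Cells were kept within the limits in the study's methods, whose wording (reads per cell) was read as genes detected: 500 to 6000 genes and at most 5% mitochondrial UMIs for penis, 100 to 9000 (forelimb) or 9500 (hindlimb) genes and at most 10% for limbs, and a log10 ratio of genes to UMIs of at least 0.8. Gates asked for 3 of 6 markers, 4 of 7 for chondrocytes and 3 of 8 for muscle. A cell passing 2 gates was left out of both classes, and the mesenchyme gate was applied to cells that passed no other. Counts were summed per class and library, so cells were never replicates. After filtering, totals were 68417925, 68127411 and 51529854 UMIs (penis), 142718533 (forelimb) and 148752710 (hindlimb). Sums were fitted over all genes with edgeR 4.0.16 (R 4.3.3; TMM, filterByExpr), with library as a block where 2 classes of the same libraries were compared. The contrast between organs of that comparison is an interaction term. Shares were compared after thinning to 2000 UMIs (Python 3.11.15, scipy 1.17.1) by an exact permutation test, with cells under that depth left out. Alternatives were DESeq2 1.42.0, RLE scaling, no filter, all barcodes, stricter gates, another tendon gate and each library left out. On simulated counts edgeR recovered 97% of genes changed by 2 on the log2 scale in the penis against limb comparison of *Kera*+ *Fmod*+ cells (11867 genes, 0 false calls), and 84.6% in *Kera*+ *Fmod*+ against other cells (16728 genes, 1 false call). The counts were drawn from the spread edgeR itself had fitted, with few genes changed and no library effect beyond depth. They therefore describe the test where its model holds, and not its error rate on the real sums.

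Genes named were the 8 members, the 12 called list genes of largest size in each of the 3 main comparisons, and the 3 genes most like each member. Further called genes of lists with few calls were named after their values were seen. Coordinates are from the GENCODE annotation of GRCm38 and upstream sequences from RefSeq. For 1 gene of the regulator list the result is not reported here.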

Additional observations from a re-analysis of the deposited data

Results flagged for a closer look

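The contrasts of 3 genes drew attention because the difference between the *Kera*+ *Fmod*+ and the other mesenchyme-like cells was not the same in penis and limb by the interaction test. For *Thbs4* the difference was -2.74 on the log2 scale, for *Comp* 1.84 and for *Scx* 1.01. *Comp* rests on 12 to 21 UMIs in each library's *Kera*+ *Fmod*+ sum. *Scx* lies at the size limit of the call, and its difference was between 0.90 and 0.98 where the call was lost. No group held 4 to 10 libraries, so no library could be tested as lying apart from its group.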

How the results depend on the processing

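Of the counts of members called, 63 stayed within 1.5 times of the reported count under the alternatives, and the count over the other cell types moved from 14 to 8 with 1 more marker per gate. With 1 library left out, the members called ranged from 3 to 3 in mesenchyme-like cells, 2 to 3 in *Kera*+ *Fmod*+ cells, 4 to 4 in chondrocyte-like cells, 11 to 14 over the other types, 4 to 5 in *Kera*+ *Fmod*+ against other cells and 2 to 4 in the difference between organs. Of the members' log2 fold-changes under an alternative, 505 kept direction and call, 41 lost the call, 8 gained it and 16 changed sign, and of the differences in shares 186 kept their sign and 6 did not. The cause of these changes was not tested. Over all genes, the calls in *Kera*+ *Fmod*+ against other cells fell from 224 to 119, 93 and 87 without penis library 1, 2 and 3 and to 144 with the gate of 2 of 5 tendon genes that leaves out the gene measured. The interaction gave 388 calls by DESeq2 against 583, and penis against limb in *Kera*+ *Fmod*+ cells 2982 with that gate against 1702. In mural-like cells 1 more marker per gate left 511 genes called higher and 361 lower, against 976 and 805.

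The largest reported value to change sign was that of *Comp* in chondrocyte-like cells, -3.30, which stood at 0.14 with the osteoblast gate allowed (an alternative chosen after seeing the data) and at -0.49 (adjusted p = 0.062, edgeR) with 1 more marker per gate. With the gate of 2 of 5 tendon genes, penis against limb gave *Tnc* 0.52, and the interaction gave *Mkx* 0.54 and *Tnc* 0.37, while *Comp* stood at 0.87 and *Scx* at 0.90, both under the size limit. *Tnmd* in chondrocyte-like cells was 0.22 with 1 more marker per gate, and *Tnc* in *Kera*+ *Fmod*+ against other cells -0.020 with no filter on low counts. With 1 library left out, penis against limb ranged from -0.13 to 0.16 for *Thbs2* in mesenchyme-like cells, -0.0087 to 0.38 for *Mkx* and -0.35 to 0.046 for *Tnc* in *Kera*+ *Fmod*+ cells, and -0.37 to 0.29 for *Tnmd* in chondrocyte-like cells. In *Kera*+ *Fmod*+ against other cells *Tnc* ranged from -0.050 to 0.11, and the interaction for *Mkx* from -0.51 to 0.036. The difference in the share of cells, in percentage points, was for *Thbs2* in mesenchyme-like cells 0.024 thinned to 1000 UMIs, 4.47 without thinning and -1.34 to 0.42 with 1 library left out. For *Mkx* in *Kera*+ *Fmod*+ cells it was 0.42 thinned to 4000 UMIs, 6.99 without thinning and -1.87 to 0.58 with 1 library left out.

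Penis and limb libraries came from animals of different ages, so they could not be paired by donor. The comparison of 2 classes of the same libraries already held the library as a block. With 1 library left out of a limb, the lone limb library is assumed to vary like the penis libraries. Intervals and floors cover counting error only. Depth limits the values that rest on few UMIs, such as *Comp* in *Kera*+ *Fmod*+ cells (12 to 21 a library) and *Tnc* in limb osteoblast-like cells (12 and 6).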

Other observations

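A few mesenchyme-like cells carried *Gdf5*, a signal of forming joints (10, 13 and 10 in the penis, 235 and 356 in the limbs). They held *Mkx* at 367, 123 and 239 CPM in the penis and 76.9 and 68.5 CPM in the limbs, and *Tnc* at 271, 348 and 487 CPM against 114 and 134.8 CPM. The penis values rest on few cells and have no test. Cells that passed no gate, with medians of 1575 to 2800 UMIs, held *Tnmd* at 66.6 and 47.9 CPM in the limbs, above the limb mesenchyme-like cells, and at 30.3, 8.02 and 0 CPM in the penis.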
